A study of Drosophila melanogaster with 21 samples.

Results

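The 10 genes described here were listed together as Drosophila Toll pathway genes: spz, Tl, 18w, Myd88, tub, pll, cact, dl, Dif and Drs. The list includes another receptor of the Toll family, 18w, and a readout gene, Drs. The 10 genes were taken by gene symbol from 13989 genes with transcripts in the deposited tables. This rule uses no measured value, but the members were chosen with earlier results of these data known. The RNA came from S2 cells, a cultured line with features of Drosophila blood cells, into which a copper-inducible gene had been integrated with hygromycin selection. The gene encoded either GFP or LS2, a paralog of the large subunit of the splicing factor U2AF, which recognises the 3′ end of introns. Every group, GFP included, received 500 µM copper sulfate for 53 h before polyadenylated RNA was sequenced. There were 7 groups of 3 libraries. WT carried unaltered LS2. Beta5 carried the changes K192E and R194E. The d38 form carried W62A, D63A and I64A. RRM2 carried F285D and F287D. SF1mut, titled SF1 by the submitters, carried E370K and D371K. GSlinker had glycine-serine linker motifs in place of residues H197 to P233.

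In the Toll pathway the secreted ligand Spätzle, once cut by a protease cascade, binds the receptor Toll. The receptor assembles the death-domain proteins MyD88, Tube and Pelle, and this leads to destruction of the inhibitor Cactus. Cactus otherwise holds the NF-κB factors Dorsal and Dif in the cytoplasm. Blood cells and the fat body use the pathway against fungi and Gram-positive bacteria, and the embryo uses it to pattern its back-to-belly axis.

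Estimated count totals ranged from 17667236 to 38553848 per library. LS2 stood at 1.46 to 3.97 TPM (length-normalised transcript abundance) in the GFP libraries and between 5175 and 8216 TPM in the LS2 libraries, as labelled. Each construct is represented by 1 selected line, so the line and the construct cannot be told apart. The labels do not say that the 3 libraries of a group came from separate cultures, so p-values measure the spread between these libraries, which may be technical. The libraries fell into 2 sets by the deposited effective lengths. The SD of length minus effective length, over transcripts longer than 2000 nt, was 68.4 to 88.6 nt in GFP, WT, d38 and RRM2 and 278 to 379 nt in Beta5, GSlinker and SF1mut. The library set and the mutation cannot be told apart where a group of the second set is compared with GFP or WT. Of 10 blood-cell markers, 9 had a median over 1 TPM in all libraries, while NimC1 stayed at or below 0.192 TPM. The 5 fat-body markers summed to at most 0.271 TPM.

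All 10 members passed the filter on low counts. Their levels per transcript length differed widely: spz ranged from 236 to 482 TPM over the 21 libraries and Drs from 111 to 330 TPM. The inhibitor cact ranged from 62.4 to 86.9 TPM, tub from 41.1 to 63.5 TPM, dl from 33.1 to 63.9 TPM and pll from 27.8 to 32.5 TPM. At the low end Tl ranged from 16.6 to 25.3 TPM, Dif from 12.6 to 20.98 TPM, Myd88 from 8.07 to 15.6 TPM and 18w from 5.28 to 13.3 TPM. Levels below are TMM-scaled estimated counts as CPM, the count relative to library size, which compare libraries for 1 gene but not genes with each other.

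**Figure D1:**
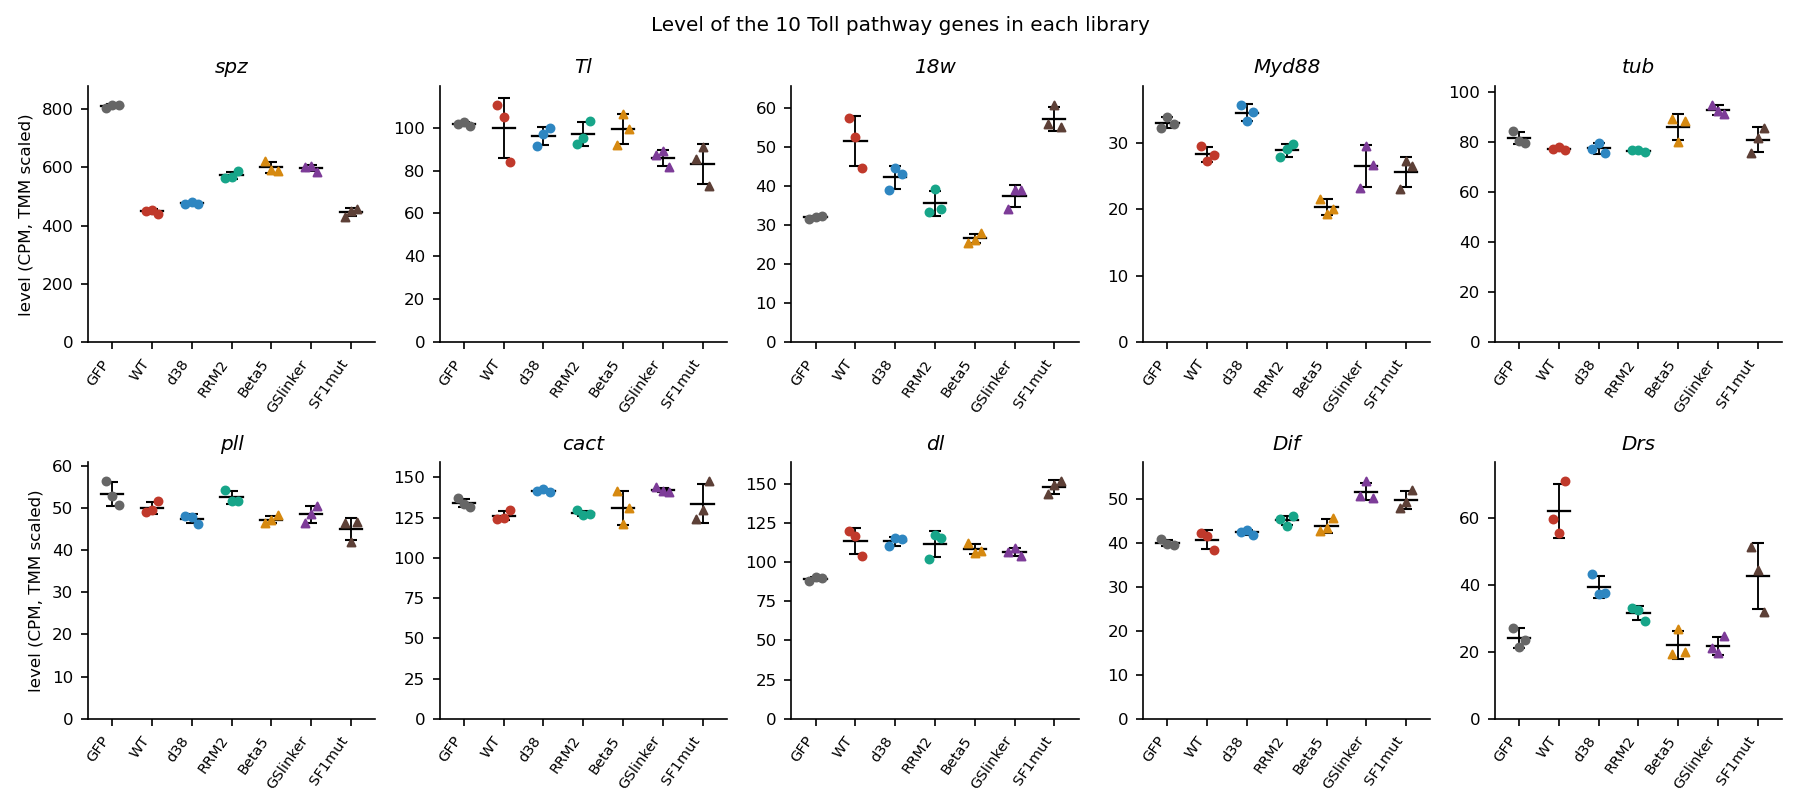
Level of each gene (y axis, TMM-scaled CPM) in the 7 groups (x axis). Points are libraries, circles for the first library set and triangles for the second; the long bar is the mean and the whisker the SD (n = 3). The GFP libraries stand highest for spz, between 802 and 813 CPM, and lowest for dl, between 87.9 and 90.5 CPM.

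With unaltered LS2, spz was lower than in GFP, and dl, 18w and Drs were higher. In that comparison 5 of the 10 members passed the threshold (edgeR quasi-likelihood test, Benjamini-Hochberg adjusted p under 0.05), where 34.2% of all genes tested did, and of these 5 members 3 were higher (17.1% of all genes) and 2 lower (17.1%). The d38 group had 5 members called (30.3% of all genes) and RRM2 had 3 (24.9%). Among the other 3 forms, Beta5 had 6 members called (57.3%), GSlinker 8 (63.7%) and SF1mut 8 (58.5%). The shares of members and of all genes lay close together in Beta5 and RRM2, and 1 member more or less moves the members' share by 10 percentage points. The median absolute log2 fold change of the members was 0.16 in WT and 0.34 in SF1mut, against 0.18 and 0.31 over all genes tested. These 6 comparisons share the GFP libraries. The ligand spz was lower and dl higher than in GFP in 6 of 6 comparisons, and cact was called in none.

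**Figure D2:**
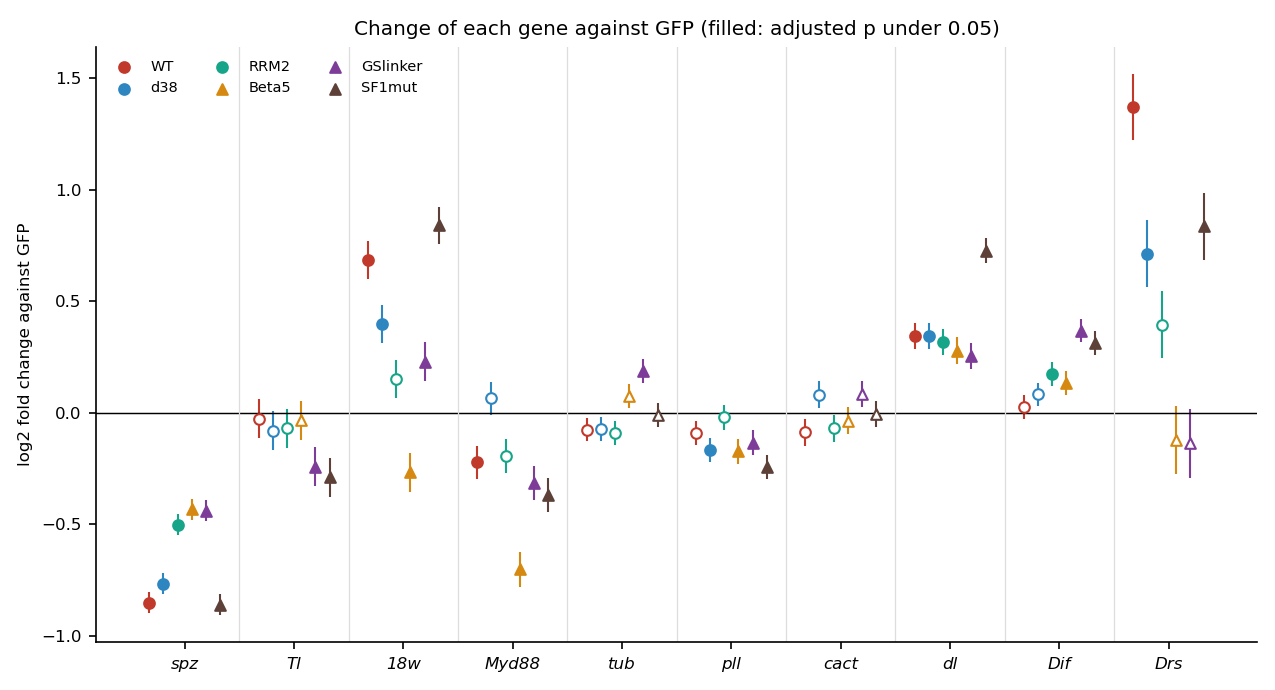
Log2 fold change of each gene against GFP (y axis) for the 6 LS2 groups, with the gene on the x axis. Whiskers are 1 SE; filled symbols have an adjusted p under 0.05, circles are the first library set and triangles the second. The changes run from -0.86 for spz in SF1mut to 1.37 for Drs in WT, and all 6 symbols of cact are open.

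The transcript of spz, which encodes the ligand, was lower in every LS2 group. It stood at 802, 813 and 812 CPM in GFP and at 452, 454 and 440.0 CPM in WT. The d38 libraries had 475, 479 and 474 CPM, the RRM2 libraries 564, 566 and 585 CPM and the SF1mut libraries 431, 449.8 and 458 CPM. Beta5 had 622, 590.0 and 588 CPM and GSlinker 602, 604 and 585 CPM, so no LS2 library reached a GFP library. On the log2 scale spz fell by 0.85 in WT (SE 0.05, edgeR adjusted p = 1.594e-11) and by 0.86 in SF1mut (SE 0.05, adjusted p = 9.715e-12). The log2 fold changes of the other 4 groups were -0.77 (d38), -0.50 (RRM2), -0.43 (Beta5) and -0.44 (GSlinker). Compared with WT itself, spz was higher in RRM2 (0.35, SE 0.05, adjusted p = 5.095e-05), Beta5 (0.42, adjusted p = 1.038e-06) and GSlinker (0.41, adjusted p = 1.491e-06). It was not called in d38 (0.09, SE 0.05, adjusted p = 0.2458) or SF1mut (-0.01, SE 0.05, adjusted p = 0.8939), although on TPM values, where the median of all genes also moved up by 0.14 and 0.18, both were called higher than WT.

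The summed level of the blood-cell markers was lower than GFP in every LS2 group, while in Beta5 and GSlinker single markers were called in both directions. The sum was 1658 to 1740 TPM in GFP, 768 to 907 TPM in WT, 913 to 975 TPM in d38 and 1157 to 1297 TPM in RRM2. It was 983 to 1037 TPM in Beta5, 1275 to 1488 TPM in GSlinker and 1131 to 1235 TPM in SF1mut. Pxn, Col4a1 and vkg, which encode matrix proteins, were the markers with the highest levels in GFP, at 491, 531 and 292 TPM, against 218, 182 and 103 TPM in WT. The blood-cell factor gene srp went from 98.97 TPM in GFP to 145 TPM in GSlinker, and the receptor gene eater from 61.7 to 92.0 TPM. Of the 9 markers tested, 0 were higher and 7 lower in WT (17.1% of all genes were lower), and 0 higher and 7 lower in d38 (15.2%). The RRM2 form had 0 higher and 5 lower (12.7%), Beta5 1 higher and 4 lower (29.3%), GSlinker 2 higher and 4 lower (32.5%), and SF1mut 0 higher and 6 lower (30.1%). Whether cells of these lines differ in identity, and whether that bears on spz, was not tested. In bulk RNA, fewer cells of a type and less RNA per cell cannot be told apart.

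The receptor genes behaved differently from each other. Tl, the receptor of Spätzle, stood at 102, 103 and 101 CPM in GFP and at 111, 105 and 84.2 CPM in WT, where the libraries overlapped and no change was called (-0.03, SE 0.09, edgeR adjusted p = 0.8484). It was lower in GSlinker (-0.24, SE 0.09, adjusted p = 0.02163) and SF1mut (-0.29, SE 0.09, adjusted p = 0.007715), but on TPM values the first difference was 0.003 and the second -0.0005. Without any 1 GFP library, or without GSlinker replicate 3, the GSlinker call was lost (adjusted p 0.05623 to 0.08273). Without SF1mut replicate 3 the SF1mut call was lost (adjusted p = 0.05702).

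18w, a Toll family receptor with a part in cell movement and tissue folding, rose in WT and SF1mut. It had 31.5, 32.2 and 32.5 CPM in GFP, 57.4, 52.5 and 44.6 CPM in WT and 56.1, 60.8 and 55.1 CPM in SF1mut. Neither group overlapped GFP. The log2 fold change was 0.69 in WT (SE 0.08, edgeR adjusted p = 2.086e-06), 0.84 in SF1mut (SE 0.09, adjusted p = 8.034e-08) and 0.40 in d38 (SE 0.09, adjusted p = 0.001217). RRM2, at 33.5, 39.4 and 34.1 CPM, was not called (0.15, SE 0.09, adjusted p = 0.2153). Beta5 libraries were below every GFP library, at 25.6, 26.3 and 28.02 CPM (-0.27, SE 0.09, adjusted p = 0.01373), and GSlinker was higher by 0.23 (adjusted p = 0.0268). The Beta5 call was lost on TPM values (-0.18 to -0.16) and without GFP replicate 3 (adjusted p = 0.06014) or Beta5 replicate 1 (0.05301). The GSlinker call was lost without GFP replicate 1 or 2, without GSlinker replicate 2 or 3 (adjusted p 0.05677 to 0.09723), and with effective lengths in the fit. Against WT, 18w was lower in d38 (-0.29), RRM2 (-0.53), Beta5 (-0.95) and GSlinker (-0.46), and not called in SF1mut (0.15, SE 0.08, adjusted p = 0.1304). The d38 call was lost on TPM values (-0.10) and without WT replicate 1 or 2 or d38 replicate 1 or 3 (adjusted p 0.05355 to 0.171), while without WT replicate 1 SF1mut was called higher (adjusted p = 0.02948). Within the second library set, Beta5 was lower than SF1mut by 1.105 on the log2 scale (SE 0.09, adjusted p = 9.406e-09).

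Downstream of the receptor, Myd88, which encodes the adaptor bound to the receptor's intracellular domain, was lowest in Beta5. It had 32.3, 33.8 and 32.8 CPM in GFP and 21.6, 19.3 and 20.1 CPM in Beta5, without overlap (-0.70, SE 0.08, edgeR adjusted p = 4.497e-07). It also fell in SF1mut (-0.37, SE 0.08, adjusted p = 0.000349), GSlinker (-0.32, SE 0.08, adjusted p = 0.001421) and WT (-0.22, SE 0.08, adjusted p = 0.02683). The WT call was lost without GFP replicate 2, GFP replicate 3 or WT replicate 2 (adjusted p 0.05456 to 0.06713). Beta5 was lower than WT (-0.48, adjusted p = 5.043e-05), than GSlinker (-0.39, adjusted p = 0.002096) and than SF1mut (-0.33, adjusted p = 0.004575), and the last 2 comparisons lie within 1 library set. The d38 libraries, at 35.7, 33.2 and 34.7 CPM, were higher than WT (0.29, SE 0.07, adjusted p = 0.01131).

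The adaptor tub and the kinase pll, which meet through their death domains, changed little. The level of tub was called in GSlinker, at 95.0, 92.7 and 91.3 CPM against 84.5, 80.8 and 79.9 CPM in GFP (0.19, SE 0.05, edgeR adjusted p = 0.004382), and the groups did not overlap. No other group was called against GFP by edgeR, but with limma on TPM values tub was also called higher in SF1mut (0.21, adjusted p = 0.008584, where edgeR gave -0.01) and Beta5 (0.19, adjusted p = 0.0159). The level of pll was 56.3, 52.9 and 50.7 CPM in GFP and 46.5, 42.0 and 46.6 CPM in SF1mut (-0.24, SE 0.05, adjusted p = 0.0008417). It was also called lower in d38 (-0.17), Beta5 (-0.17) and GSlinker (-0.13), but on TPM values none of these 4 calls held and the GSlinker difference turned to 0.03. Without GFP replicate 1 the pll calls in d38, Beta5 and GSlinker were lost (adjusted p 0.1149 to 0.2486). They were also lost in d38 without d38 replicate 2 or 3, and in GSlinker without GFP replicate 2 or GSlinker replicate 1 or 2 (adjusted p 0.05483 to 0.1415).

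The level of the inhibitor gene cact passed the edgeR test in 0 of the 6 comparisons with GFP, at 0 unadjusted p-values under 0.05. By limma on TPM values it passed in 3: lower in WT (-0.17, adjusted p = 0.04756) and higher in d38 (0.18, adjusted p = 0.03444) and GSlinker (0.15, adjusted p = 0.04769). It was 137, 133 and 132 CPM in GFP, 124, 125 and 129 CPM in WT and 144, 142 and 141 CPM in GSlinker. GSlinker and WT did not overlap, and cact was higher in GSlinker than in WT (0.17, SE 0.06, edgeR adjusted p = 0.01807), a call lost without GSlinker replicate 1 (adjusted p = 0.05051).

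Of the NF-κB genes, dl rose in every LS2 group and most in SF1mut. It had 87.9, 90.5 and 89.5 CPM in GFP, 119.8, 117 and 104 CPM in WT and 143, 149 and 151 CPM in SF1mut. The lowest LS2 library, RRM2 replicate 1 at 102 CPM, was above the highest GFP library. The log2 fold change was 0.34 in WT (SE 0.06, edgeR adjusted p = 9.126e-05) and 0.73 in SF1mut (SE 0.06, adjusted p = 2.702e-09), and lay between 0.25 and 0.34 in the other 4 groups. SF1mut was higher than WT (0.38, SE 0.06, adjusted p = 3.488e-05), and within its library set higher than Beta5 (0.45) and GSlinker (0.47). Dif was not called in WT (0.03, SE 0.05, adjusted p = 0.7522), at 42.4, 41.6 and 38.4 CPM against 40.8, 39.9 and 39.5 CPM in GFP. It rose in GSlinker to 50.8, 54.0 and 50.4 CPM (0.37, SE 0.05, adjusted p = 7.087e-06) and in SF1mut to 48.0, 49.4 and 52.1 CPM (0.31, SE 0.05, adjusted p = 4.457e-05), with no overlap with GFP. Smaller rises were called in RRM2 (0.17, adjusted p = 0.01978) and Beta5 (0.13, adjusted p = 0.0349). The RRM2 call was lost on TPM values and without GFP replicate 2 or 3 or RRM2 replicate 3 (adjusted p 0.05772 to 0.08497). The Beta5 call was lost without GFP replicate 2 or 3 or Beta5 replicate 2 or 3 (adjusted p 0.05099 to 0.1575).

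Drs encodes drosomycin, an antifungal peptide widely used as a readout of Toll signalling in the fat body. It stood at 27.3, 21.4 and 23.6 CPM in GFP, 59.9, 55.6 and 71.0 CPM in WT, 43.3, 37.4 and 37.7 CPM in d38 and 51.4, 44.5 and 32.1 CPM in SF1mut. Each of the 3 LS2 groups lay above all GFP libraries. Drs rose by 1.37 in WT (SE 0.15, edgeR adjusted p = 3.152e-07), by 0.71 in d38 (SE 0.15, adjusted p = 0.0009805) and by 0.83 in SF1mut (SE 0.15, adjusted p = 8.203e-05). RRM2 had 33.3, 32.5 and 29.2 CPM, also above GFP, but missed the threshold (0.40, SE 0.15, adjusted p = 0.05838), and it passed under 7 of 9 other settings and without GFP replicate 1 (adjusted p = 0.04636). Beta5 (19.4, 26.9 and 19.9 CPM) and GSlinker (21.1, 19.7 and 24.8 CPM) overlapped GFP and were not called. Their differences were -0.12 (SE 0.15, adjusted p = 0.5149) and -0.14 (SE 0.16, adjusted p = 0.4584). Each altered form was lower than WT: by 1.51 in GSlinker (adjusted p = 3.571e-07), 1.49 in Beta5 (adjusted p = 2.229e-07), 0.97 in RRM2 (adjusted p = 0.0001306), 0.66 in d38 (adjusted p = 0.003135) and 0.54 in SF1mut (adjusted p = 0.004505), as the size of a negative log2 fold change. On TPM values the difference of SF1mut from WT was not called (-0.23, adjusted p = 0.146). Within the second library set Drs was lower in Beta5 than in SF1mut (-0.96, SE 0.15, adjusted p = 8.2e-05) and lower in GSlinker than in SF1mut (-0.97, SE 0.15, adjusted p = 9.622e-05). Drs thus had the order WT, SF1mut, d38, RRM2, GFP, Beta5 and GSlinker by mean CPM, and the last 3 did not differ beyond their spread.

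Against WT, 3 of the 10 members were called in d38 (16.3% of all genes) and 3 in RRM2 (8.11%). The Beta5 form had 5 called (54.0%), GSlinker 7 (58.1%) and SF1mut 5 (49.2%). Within a library set, 2 were called between d38 and RRM2 (13.6%), 3 between Beta5 and GSlinker (16.9%), 7 between Beta5 and SF1mut (20.5%) and 5 between GSlinker and SF1mut (27.8%). These last 4 comparisons were added after the library sets were seen. The 7 members that differed between Beta5 and SF1mut were spz and Tl, higher in Beta5 (8.88% of all genes were), and Myd88, 18w, dl, Dif and Drs, lower in Beta5 (11.6%). The Tl call was lost without Beta5 replicate 2 or 3 or SF1mut replicate 3 (adjusted p 0.1001 to 0.1735) and on TPM values. The Dif call was lost without Beta5 replicate 1 or 2 or SF1mut replicate 3 (adjusted p 0.06221 to 0.08299). A fit of these 2 groups alone called 4 members, and the share of all genes in that fit is not given.

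Isoform shares, each isoform's part of its gene's TPM, could be tested for 7 members, since 18w, tub and Drs have 1 transcript each. Against GFP, WT had 3 of the 7 called (limma on logit shares, adjusted p under 0.05; 17.3% of genes tested), d38 had 4 (13.5%) and RRM2 had 4 (14.4%). Beta5 had 6 (34.2%), GSlinker 7 (43.5%) and SF1mut 6 (38.1%). Isoforms were then summed by shared coding sequence, a step chosen after the isoform values had been seen, which leaves out differences confined to untranslated ends. Of 5 members with more than 1 coding sequence, 4 were called in WT (25.1% of genes tested so), 3 in d38 (14.9%) and 4 in RRM2 (16.8%). Likewise 4 were called for Beta5 (29.7%), 4 for GSlinker (40.0%) and 4 for SF1mut (35.5%). The members called were cact, Dif and spz in all 6 comparisons and dl in all but d38. Against WT, the isoform test called 2 members in d38 (8.26% of genes), 5 in Beta5 (28.8%), 6 in GSlinker (35.5%) and 4 in SF1mut (25.0%). In RRM2 against WT limma called 0 (2.02%), with 2 at an unadjusted p under 0.05, and the edgeR exon-usage test also called 0. Within the library sets it called 1 member each between d38 and RRM2 (4.38%), Beta5 and GSlinker (3.20%), Beta5 and SF1mut (4.91%) and GSlinker and SF1mut (9.78%). By coding sequence, 2 members differed from WT in d38 (12.2%) and 1 in RRM2 (4.34%). Beta5 had 2 that did (28.2%), GSlinker 2 (32.0%) and SF1mut 1 (22.0%). Within the sets 2 differed between d38 and RRM2 (7.93%), 1 between Beta5 and GSlinker (5.33%), 2 between Beta5 and SF1mut (9.08%) and 1 between GSlinker and SF1mut (12.8%).

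In cact, dl and Dif the same kind of isoform was involved, one whose last exon runs on past a 5′ splice site that the other isoforms use. All 3 genes lie on the minus strand of chromosome 2L (BDGP6 coordinates). The last exon of cact-RC covers chr2L:16313685-16314708 and runs 766 nt past the splice site, ending inside the 1000 nt intron that cact-RB removes at chr2L:16313451-16314450. The last exon of Dif-RC, chr2L:17414907-17417646, runs 2664 nt past the site and through the whole 2182 nt intron removed in Dif-RA (chr2L:17415389-17417570). The last exon of dl-RC, chr2L:17438646-17441879, runs 3155 nt past the site and through the 2503 nt intron removed in dl-RA (chr2L:17439298-17441800).

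The proteins differ in their C-terminal part. Cactus from cact-RC and cact-RB shares 477 residues and ends with 5 and 23 residues of its own, for 482 and 500 in all. Dif-RC encodes 987 residues and Dif-RA 667, with the first 359 in common. The protein of dl-RC has 999 residues and that of dl-RA 677, with the first 329 in common. The shared stretch of Dorsal and Dif is the side of the Rel homology domain, which binds DNA and Cactus.

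**Figure D3:**
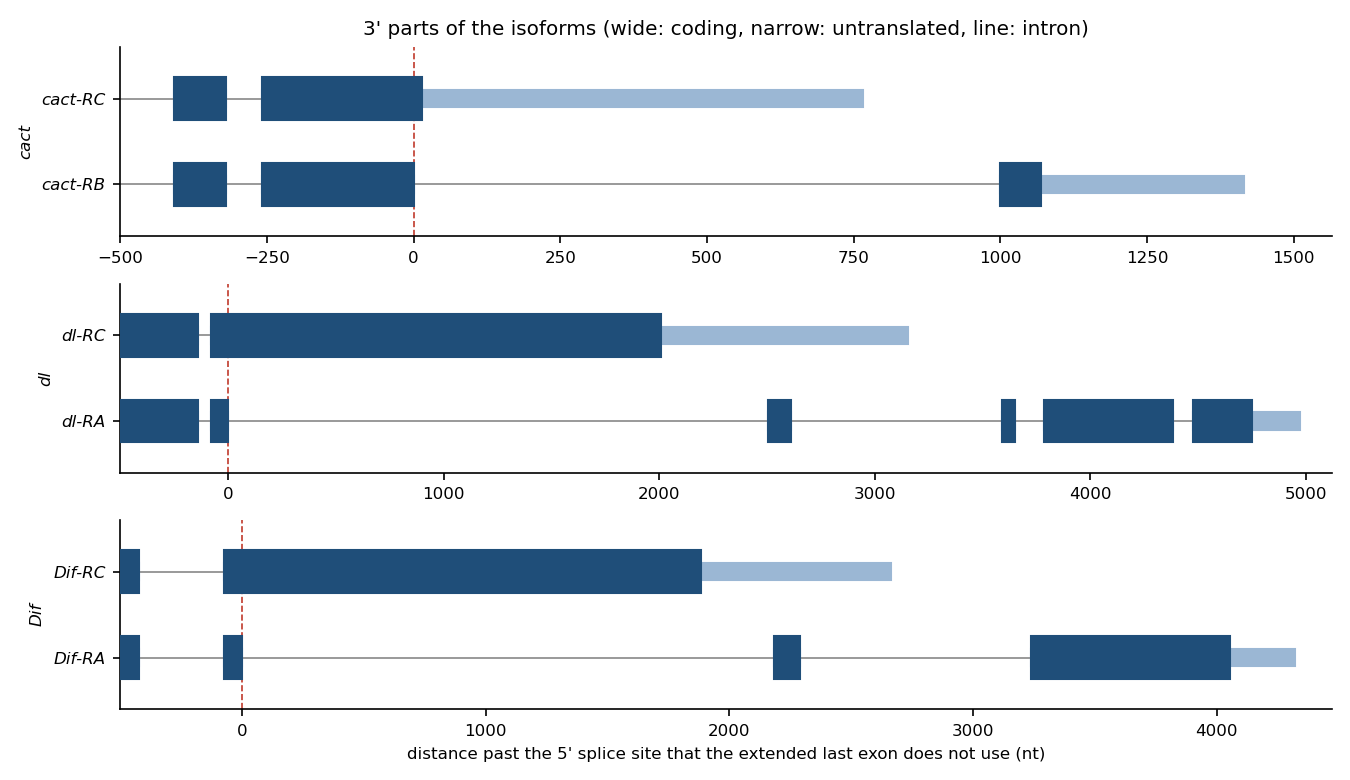
Exons near the 3′ end of the extended and spliced isoforms of cact, dl and Dif; the x axis is the distance in nt past the 5′ splice site that the extended last exon does not use, cut at its left. Wide boxes are coding, narrow boxes untranslated and lines introns. The extended exon ends 766 nt past the site in cact, 3155 nt in dl and 2664 nt in Dif, and its coding part ends inside the intron in each.

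The extended isoform of Dif took a larger share in every LS2 group. Dif-RC made up 9.53%, 11.2% and 11.8% of Dif TPM in GFP, 32.1%, 36.4% and 27.2% in WT, 35.5%, 32.1% and 31.2% in GSlinker and 33.7%, 36.2% and 35.7% in SF1mut. It made up 22.3%, 19.1% and 20.1% in d38, 20.95%, 22.6% and 24.6% in RRM2 and 20.1%, 20.8% and 25.4% in Beta5. No LS2 library overlapped GFP, and d38, RRM2 and Beta5 lay below all WT libraries. The rise over GFP was 21.03 percentage points in WT (limma, adjusted p = 3.769e-07), 22.1 in GSlinker (adjusted p = 3.484e-07) and 24.3 in SF1mut (adjusted p = 9.64e-08). It was 9.64 points in d38 (adjusted p = 0.0003734), 11.9 in RRM2 (adjusted p = 6.723e-05) and 11.3 in Beta5 (adjusted p = 5.904e-05). Compared with WT the share fell by 11.4 points in d38 (adjusted p = 0.002025), 9.18 in RRM2 (adjusted p = 0.02605) and 9.78 in Beta5 (adjusted p = 0.003095), while GSlinker (1.03 points, adjusted p = 0.7885) and SF1mut (3.30 points, adjusted p = 0.368) were not called. The RRM2 call was lost without WT replicate 1 or 2 or RRM2 replicate 1 or 2 (adjusted p 0.07458 to 0.12). Within its own library set Beta5 was lower than GSlinker by 10.8 points (adjusted p = 0.007993) and lower than SF1mut by 13.1 points (adjusted p = 0.00131). When only the 2 groups compared were fitted, these calls within the set and those against WT were lost. In TPM, Dif-RC rose from 1.61 ± 0.179 in GFP to 4.33 ± 0.840 in WT (SD, n = 3), while the spliced isoforms went from 13.3 ± 0.201 to 9.19 ± 0.278.

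The extended isoform of cact also took a larger share in every LS2 group, although the level of cact was not called against GFP. The share of cact-RC was 17.8%, 17.7% and 18.1% in GFP, 36.6%, 34.1% and 31.7% in WT, 28.4%, 29.0% and 28.7% in d38 and 29.7%, 27.6% and 27.1% in RRM2. It was 43.8%, 37.8% and 39.0% in Beta5, 47.7%, 46.4% and 44.6% in GSlinker and 32.1%, 47.2% and 45.1% in SF1mut. All 18 LS2 libraries were above all GFP libraries. GSlinker and Beta5 were above all WT libraries, d38 and RRM2 were below all of them, and SF1mut overlapped WT. The rise was 16.3 points in WT (limma, adjusted p = 0.0001083), 10.9 in d38 (adjusted p = 0.003517) and 10.3 in RRM2 (adjusted p = 0.004419). The mean rise was larger in the groups of the second library set, where set and mutation cannot be told apart. It was 28.4 points in GSlinker (adjusted p = 1.056e-06), 23.6 in SF1mut (adjusted p = 3.721e-06) and 22.4 in Beta5 (adjusted p = 1.077e-05). GSlinker exceeded WT by 12.1 points (adjusted p = 0.005817), and the other 4 forms were not called against WT.

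The change in dl was smaller and depended on the form. Isoforms dl-RC and dl-RF, which share a coding sequence, made up 18.04%, 20.9% and 19.0% of dl TPM in GFP, 26.9%, 25.8% and 20.8% in WT, 18.5%, 18.4% and 19.7% in d38 and 25.3%, 26.9% and 26.4% in RRM2. In the second library set they made up 22.5%, 26.3% and 25.3% in Beta5, 28.7%, 27.9% and 29.0% in GSlinker and 26.1%, 26.6% and 23.0% in SF1mut. The WT and d38 libraries overlapped GFP, and the other 4 groups did not. The share rose by 9.19 points in GSlinker (limma, adjusted p = 0.0003012), 6.86 in RRM2 (adjusted p = 0.005248), 5.89 in SF1mut (adjusted p = 0.006331), 5.37 in Beta5 (adjusted p = 0.01298) and 5.18 in WT (adjusted p = 0.01834), and was not called in d38 (-0.45 points, adjusted p = 0.9178). It was lower in d38 than in RRM2 by 7.32 points (adjusted p = 0.006168). The WT call was lost without GFP replicate 1 or 3 and without WT replicate 1 or 2 (adjusted p 0.05221 to 0.1016), and the Beta5 call without GFP replicate 1 (adjusted p = 0.06002) or Beta5 replicate 2 (0.05631). When only the 2 groups compared were fitted, the calls for WT, Beta5 and SF1mut were lost.

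**Figure D4:**
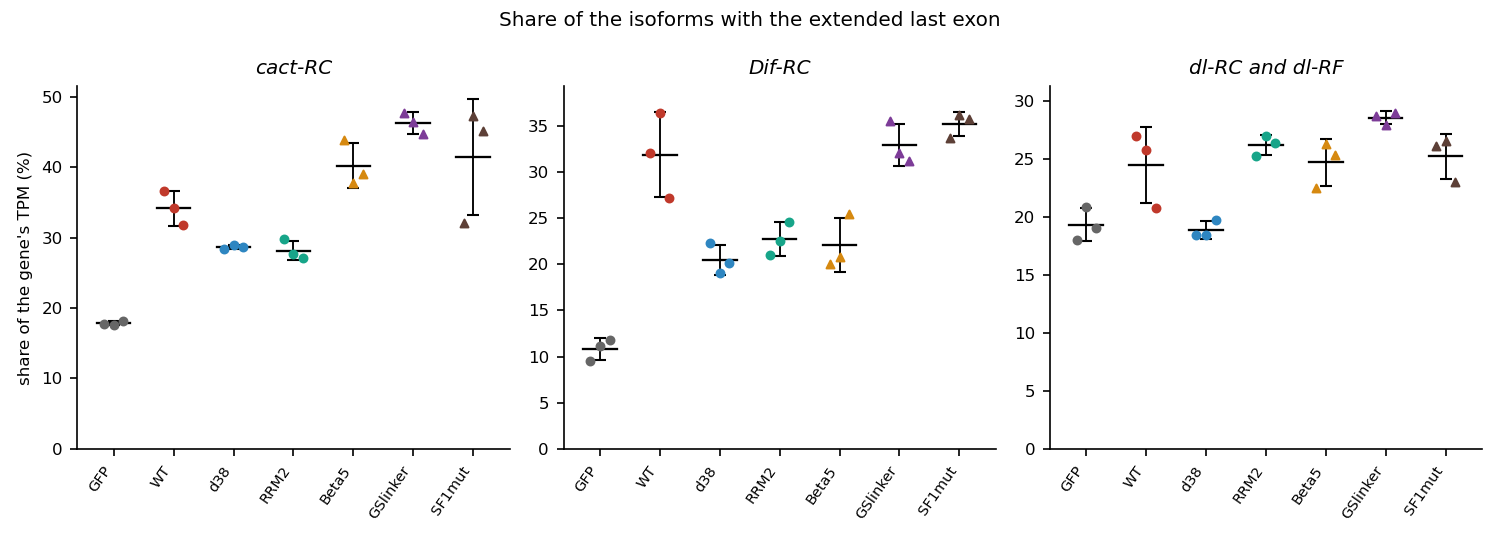
Share of the isoforms with the extended last exon in the TPM of cact, Dif and dl (y axis, %) in the 7 groups. Points are libraries, circles for the first library set and triangles for the second; bars are means and whiskers SD (n = 3). For cact and Dif every LS2 library lies above the GFP libraries, which stand at 17.7% to 18.1% and 9.53% to 11.8%.

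Whether the reads assigned to these last exons came from finished mRNA or from unspliced RNA was not tested. In Dif, 252 nt of exon overlap the gene CG15141 on the other strand, and in cact 62 nt overlap fzy, but 0 nt of either overlap fall in the extended part. The strandedness of the libraries is not given in the sources used here.

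The ligand gene spz has 8 isoforms that differ in the middle of the protein and share its start and its stop. The isoform spz-RL, the one in which a 63 nt intron is removed at chr3R:27066666-27066728, lost share in every LS2 group. Its share was 11.9% ± 0.924 in GFP and 7.31% ± 1.74 in WT (SD, n = 3), with 5.12% ± 0.397 in d38 and 6.62% ± 0.756 in RRM2. Among the second library set it was lowest in SF1mut, at 3.18% ± 0.185, against 4.74% ± 0.503 in Beta5 and 5.32% ± 0.561 in GSlinker. No LS2 library reached the GFP libraries. The share of spz-RL fell by 4.61 points in WT (limma, adjusted p = 0.004254 over all isoforms) and fell by 8.745 points in SF1mut (adjusted p = 9.964e-07), with adjusted p between 2.211e-05 and 0.002099 in the other 4 groups.

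The isoform spz-RK, which contains both cassette exons of the gene, had a higher mean share in all 6 LS2 groups than in GFP. It made up 21.6%, 23.6% and 25.0% in GFP, 32.3%, 29.0% and 27.7% in WT and 31.3%, 38.8% and 38.5% in SF1mut, without overlap. The rise was 12.8 points in SF1mut (limma, adjusted p = 0.0002747), 6.70 in d38 (adjusted p = 0.04211), 6.51 in Beta5 (adjusted p = 0.0215) and 6.25 in WT (adjusted p = 0.04755), and 6.30 points in RRM2, which missed the threshold when adjusted over all isoforms (adjusted p = 0.05434) and passed when adjusted over coding sequences (0.03523) or with the first library set only (0.04222). GSlinker was not called (3.39 points, adjusted p = 0.1864). In GSlinker spz-RB stood out instead, at 16.7% ± 1.70 against 7.63% ± 0.337 in GFP (adjusted p = 0.0004101), and spz-RI was lower by 7.91 points (adjusted p = 0.007046). The spz share change of WT against GFP was not called in the isoform fit without GFP replicate 1 or without WT replicate 2 or 3 (adjusted p 0.05529 to 0.07613).

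Summed over isoforms, the 78 nt cassette exon at chr3R:27067122-27067199 was in 45.9% ± 2.12 of spz TPM in GFP, 53.9% ± 2.52 in WT and 58.3% in SF1mut. The 138 nt cassette exon at chr3R:27067358-27067495 was in 23.7% ± 1.73 in GFP, 30.1% in WT and 37.7% ± 4.91 in SF1mut. These sums were not tested. In a choice between 3′ splice sites 27 nt apart, which adds or removes 9 residues, the farther site was in 37.5% ± 0.685 of spz TPM in GFP, 38.8% ± 3.26 in WT, 42.2% ± 3.83 in SF1mut and 34.5% ± 2.80 in GSlinker, and between 36.0% and 38.6% in the other 3 groups. The isoform spz-RC had group means of 13.5% to 16.4%, with single libraries from 10.65% (SF1mut replicate 3) to 17.4% (RRM2 replicate 3). It was called in none of the 6 comparisons with GFP (limma, unadjusted p 0.1155 to 0.7871).

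**Figure D5:**
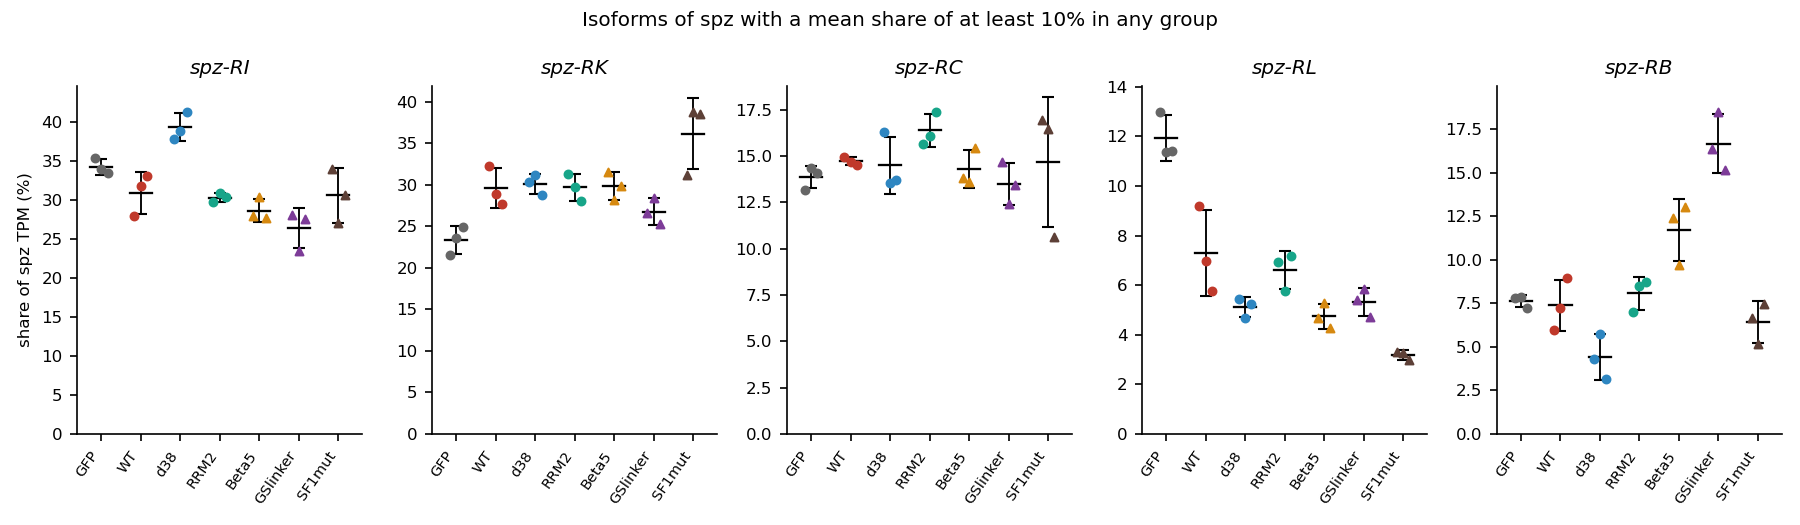
Share of spz TPM (y axis, %) of the 5 spz isoforms with a mean share of at least 10% in any group. Points are libraries, circles for the first library set and triangles for the second; bars are means and whiskers SD (n = 3). The spz-RL panel shows GFP at 11.9% and SF1mut at 3.18%.

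Mean shares of several other isoforms also differed between the library sets, in part with overlap of single libraries. Myd88-RA, with a 5′ end 334 nt longer than that of Myd88-RC and the same coding sequence, made up 0% to 22.7% of Myd88 TPM in the 12 libraries of the first set and 38.9% to 90.6% in the 9 of the second. Myd88-RB, with a 3′ end 855 nt longer than that of Myd88-RA, had mean shares of 16.4% to 21.3% in the first set and 8.24% to 12.3% in the second. The isoforms pll-RA and pll-RB differ by 79 nt at the 3′ end, and pll-RB held at most 1.40% in the first set. In the second it held 15.02% to 76.3% in 8 libraries and 0.00115% in SF1mut replicate 1. The mean share of dl-RB, which differs from dl-RA in its untranslated 5′ part, was at most 5.63% in the first set and 9.21% to 20.9% in the second, but libraries overlapped. It was 5.42%, 7.69% and 3.78% in d38 and 4.36%, 14.5% and 8.77% in GSlinker, and d38 differed from WT within the first set by 5.45 points (limma, adjusted p = 0.02302). Dif-RB ranged from 0% to 32.9% over the 21 libraries, with 0% to 21.7% among the GFP libraries alone, and was called in 0 of the 6 comparisons with GFP (unadjusted p 0.7352 to 0.9739). Where differences do run between the sets, they cannot be told apart from those between mutations. Tl-RB and Tl-RC have the same exons and equal TPM within 1% in 21 of 21 libraries, so the shares of the 2 proteins, 1 of which has 20 more residues, cannot be told apart. Tl-RD was higher in GSlinker by 4.58 points (limma, adjusted p = 0.001768), at 6.34% ± 1.15 against 1.76% ± 1.57 in GFP.

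Other genes of the pathway were counted by role against GFP. Of 12 tested genes of recognition, protease cascade and serpins, 2 rose and 2 fell in WT, near the 17.1% of all genes called in each direction, and 2 rose and 7 fell in SF1mut (28.4% and 30.1% of all genes). The protease gene modSP rose in all 6 groups, from 1.25 TPM in GFP to 2.32 TPM in WT (log2 fold change 0.92, edgeR adjusted p = 1.907e-06), while the recognition protein gene GNBP3 fell by 0.34 in WT (adjusted p = 1.691e-05). Of 4 tested receptor and ligand genes, Toll-7 rose in all 6 groups, from 0.210 TPM in GFP to 2.95 TPM in WT (3.82, adjusted p = 7.596e-13), and the other 3 were not called in WT. Of 21 intracellular regulators, 0 rose and 4 fell in WT (17.1% of all genes in each direction). In SF1mut 9 rose and 5 fell, where 28.4% of all genes rose, 30.1% fell and 58.5% were called. The largest of these changes in WT was that of Pli, a gene for the Pellino protein that acts on Pelle and MyD88 (-0.61, adjusted p = 7.422e-05).

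Among 9 tested effectors, 3 rose and 1, BomBc2, fell in WT (-0.63, edgeR adjusted p = 0.03165), where 17.1% of all genes rose and 17.1% fell. The counts higher and lower were 2 and 2 in d38 and 2 and 0 in RRM2. They were 1 and 3 in Beta5, 2 and 2 in GSlinker, and 2 and 3 in SF1mut. Of all genes, 30.3% were called in d38 (15.2% lower), 24.9% in RRM2 (12.7% lower) and 57.3% in Beta5 (29.3% lower). In GSlinker 63.7% were called (32.5% lower) and in SF1mut 58.5% (30.1% lower). The level of Mtk, an antifungal peptide gene, was 36.3 TPM in GFP and 108 TPM in WT (1.598, edgeR adjusted p = 1.446e-07). It also rose in RRM2 (67.6 TPM) and GSlinker (94.6 TPM), was not called in d38 (39.2 TPM) or Beta5 (33.6 TPM), and fell in SF1mut to 20.7 TPM (-1.01, adjusted p = 0.0002319). The level of IM33 rose from 0.722 ± 0.448 TPM to 34.2 ± 3.73 TPM (SD, n = 3; 5.59, adjusted p = 3.493e-10). Def, a gene also under control of the IMD pathway, rose from 0.482 to 3.67 TPM (2.83, adjusted p = 0.0006286). IM33 was higher in all 6 groups, and BaraA2 fell by over 1 on the log2 scale in Beta5, GSlinker and SF1mut.

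By Pearson correlation of log2 CPM over the 21 libraries, the gene most like spz was CG13907 (r = 0.985) and the gene most like Drs was wfs1 (r = 0.923). The gene most like dl was ImpL2 (r = 0.95), that most like 18w was CG14961 (r = 0.933) and that most like tub was Srrm1 (r = 0.962). For cact (CG2116, r = 0.832) and Tl (CG13775, r = 0.783) the closest gene was less alike. The 21 libraries share their groups and library sets, so these values describe the libraries and no test was made.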

How the data were processed

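The authors deposited, for each library, a table of transcripts with length, effective length, estimated counts and TPM, per the file headers. STAR, kallisto, dm6 and BDGP6 are named in the submitters' processing notes, without versions. Replicates were deposited separately. Of 30594 transcripts per library, 98.85% matched BDGP6 (Ensembl release 115), and the deposited estimated counts and TPM were summed to 13989 genes. The members and lists were chosen with earlier results of these data known.

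Levels were tested with edgeR 4.0.16 (R 4.3.3) on rounded estimated counts: TMM, filterByExpr with a count minimum of 10, and 1 quasi-likelihood fit of all 21 libraries, with Benjamini-Hochberg adjustment over 8750 genes and a threshold of 0.05. The SE is the absolute log2 fold change over the square root of F. Shares were tested with limma 3.58.1 on the log2 odds of each share, 0.01 being added to share and remainder alike; isoform p-values were combined per gene by Simes' method and adjusted over 4501 genes, or 2422 genes for isoforms summed by coding sequence. Both were tested on data simulated for the GFP and WT libraries only, with a different assumed spread for each test, so their recovery cannot be compared. The share test missed many small changes there, so a share not called may still differ. DESeq2 1.42.0 was an alternative. An exact permutation test of 3 against 3 libraries cannot go below 0.1, so none is given.

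All 10 members and the isoforms at a mean share of at least 10% in any group are named. Tl-RD, cited for its call, is below that share and was chosen after its values were seen. From other lists, up to 3 called genes with the largest change and at least 1 TPM were named per comparison, some of them here, and for likeness the closest of 3 genes with a mean CPM of at least 5. Same-numbered libraries deviated together at r over 0.1 in all 3 pairs in 1 comparison, GSlinker with WT (r = 0.166, 0.226 and 0.426). There the replicate block changed no call. All 3 pairs were also positive in d38 with RRM2, SF1mut with GFP and GSlinker with GFP, where the lowest r was 0.0401, 0.0496 and 0.0108.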

Additional observations from a re-analysis of the deposited data

How the results depend on the processing

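Results of single members, called or not, were unchanged in 1958 of 2160 recomputations for expression, 1252 of 1363 for isoforms and 653 of 705 for coding sequences. Unchanged means the same side of the threshold. For expression a turned sign counted as a change only where at least 1 of the 2 fits made a call. Counts of members called are listed below where they changed by a factor over 1.5, or to or from 0. The share of all genes called under each setting is not given. Whether only the members or all genes moved therefore cannot be told from these counts. With only the 2 groups compared, the expression count of members called was 5 in RRM2 against GFP, 3 in SF1mut against WT, 6 in d38 against RRM2 and 4 in Beta5 against SF1mut. The isoform count was then 2 in RRM2 against GFP, 1 in d38 and 3 in Beta5 against WT, and 0 in SF1mut against WT and in the 3 comparisons within the second set. The coding-sequence count was 2 in WT against GFP, 1 in d38 against RRM2 and 0 in d38, RRM2, Beta5 and SF1mut against WT and in the 3 comparisons within the second set. This fit has fewer residual degrees of freedom. With the first library set only, it was 5 in RRM2 against GFP and 5 in d38 against RRM2 for expression, and 4 and 4 in d38 against WT for isoforms and coding sequences. An effective length offset gave 1 in d38 against RRM2. On TPM values with a pseudocount of 1 it was 7 in d38 against WT and 4 in d38 against RRM2, and 7 in d38 against WT with 0.1. The edgeR exon-usage test gave 2 in d38 and 2 in RRM2 against GFP and 3 in d38 against RRM2. A count minimum of 50 gave an isoform count of 1 in RRM2 against WT. Summing by coding sequence, which leaves 5 of 7 members, gave 4 in GSlinker against GFP, 1, 2, 2 and 1 in RRM2, Beta5, GSlinker and SF1mut against WT, 2 in d38 against RRM2 and 2 in Beta5 against SF1mut. Apart from these constructions the cause was not tested.

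With the replicate block, 150 of 150 expression results, called or not, stayed on the same side of the threshold. The isoform count went to 1 in d38 against WT and 0 in Beta5 against GSlinker, and the coding-sequence count to 1 in d38 against RRM2 (spz, adjusted p = 0.07406) and 1 in Beta5 against SF1mut (spz, adjusted p = 0.08476). The same-number correlations ranged from -0.766 to 0.457, and the block otherwise changed the isoform call of dl in d38 against GFP.

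Leaving out 1 library in turn gave expression counts of 5 to 7 in GSlinker against GFP, 3 to 5 in SF1mut against WT and 1 to 2 in d38 against RRM2. Shifts within a factor of 1.5 included 4 to 5 in Beta5 against GFP, below the 6 called with all libraries. They also included 2 to 4 in RRM2 against GFP and 5 to 7 in Beta5 against SF1mut. Isoform counts were 2 to 3 in d38 against GFP, 0 to 2 in d38, 0 to 1 in RRM2, 3 to 5 in Beta5 and 2 to 5 in SF1mut against WT, 0 to 0 in d38 against RRM2, 0 to 1 in Beta5 against GSlinker, 0 to 1 in Beta5 against SF1mut and 1 to 2 in GSlinker against SF1mut. Coding-sequence counts were 1 to 3 in d38, 0 to 1 in RRM2, 1 to 2 in Beta5 and 1 to 2 in SF1mut against WT, 1 to 2 in d38 against RRM2 and 1 to 2 in Beta5 against SF1mut.

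On TPM values the median log2 difference of all genes was 0.12 in d38, 0.124 in GSlinker and 0.167 in SF1mut against GFP, and 0.143, 0.129 and 0.181 against WT, so that small changes are relative to it. Sign turns on TPM values (pseudocounts of 1 and 0.1) are given for results called by edgeR or on TPM values, and those called by neither are left out. The sign turned for pll (0.0275 and 0.0283) and Tl (0.003 and 0.003) in GSlinker against GFP and tub (0.2068 and 0.2105) in SF1mut against GFP. Against WT it turned for dl in d38 (0.2253 and 0.23), pll (0.1466 and 0.151) and Tl (0.0514 and 0.0542) in GSlinker, and spz (0.3378 and 0.3389), pll (0.071 and 0.0731) and Tl (0.0478 and 0.0504) in SF1mut. Shares of low isoforms rest on few reads, and their depth limits were not computed.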

Other observations

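Markers of other cell types were also summed. The sum of the 5 neuron markers was 2.55 to 2.78 TPM in GFP and higher in every LS2 group. It was 2.96 to 4.45 TPM in WT, 5.26 to 5.87 TPM in Beta5, 6.29 to 8.23 TPM in GSlinker and 5.75 to 8.74 TPM in SF1mut. Its largest part was elav, with a mean of 1.91 TPM in GFP, and the others stayed at or below 0.906 TPM in every library. In RRM2 the means of nSyb, Syt1 and brp were below those in GFP, while those of elav and futsch were above. Mean nSyb was also below GFP in d38, and mean Syt1 in WT. The 3 germline markers with transcripts in the tables, which include genes also used outside the germline, summed to 34.2 to 38.2 TPM in GFP and to 49.97 to 62.95 TPM in the LS2 groups, without overlap. Most of this sum was aub, with means of 32.7 TPM in GFP and 49.8 to 55.05 TPM in the LS2 groups. In WT the means of piwi (1.91 to 1.59 TPM) and bam (1.18 to 0.739 TPM) were lower than in GFP. In the other LS2 groups both means were higher than in GFP, except bam in RRM2 (1.06 TPM). The 4 ovarian follicle markers stayed between 2.88 and 5.02 TPM over the 21 libraries. The part of these markers in the levels of the members was not tested.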
